A study of Mus musculus with 2 samples.

Results

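The miR-181 family of the mouse comprises 6 microRNA genes, Mir181a-1, Mir181b-1, Mir181a-2, Mir181b-2, Mir181c and Mir181d, which are described here in embryonic intestine. The members are the rows of the deposited gene tables whose Ensembl identifier, without its version, belongs to one of these 6 genes in the GENCODE annotation of GRCm38. All 6 were found among the 1973 gene rows, and the rule itself uses no measured value. The series holds 1 group, intestine of B6NCrl mouse embryos aged 14.5 days, with 2 small RNA libraries made from inserts under 30 bases and named biological replicates 1 and 2 by the labels. The labels name a single pup's intestine for each library but a sex pooled from both, and they put the collection of replicate 1 on the 17th and that of replicate 2 on the 15th of a month, so replicate and collection day cannot be told apart. No treatment, genotype or second age was compared, so all comparisons below are between genes or between the 2 libraries.

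MicroRNAs are cut from hairpin precursors by Drosha and Dicer, and each hairpin can release a mature strand from its 5′ arm (5p) and one from its 3′ arm (3p). The mature strand guides Argonaute to messenger RNAs, largely through its seed, bases 2 to 8. The miR-181 family is known for tuning signalling thresholds in developing lymphocytes, and it is also expressed in endothelium, neural tissue and differentiating muscle. In vertebrates the genes lie in paired clusters, each with an a-like and a b-like hairpin. The measurement here was the number of reads on the strand of each gene, scaled to 1000000 such counts per library (CPM), so it counts the reads of both arms of a hairpin together.

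The mature 5p strands are shown because they define the family and because miR-181a-5p and miR-181b-5p are each encoded by 2 genes. Capitals mark the seed. All sequences are from RefSeq (GRCm38.p6).
miR-181a-5p (Mir181a-1 and Mir181a-2): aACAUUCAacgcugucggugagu
miR-181b-5p (Mir181b-1 and Mir181b-2): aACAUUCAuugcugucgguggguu
miR-181c-5p (Mir181c): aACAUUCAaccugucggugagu
miR-181d-5p (Mir181d): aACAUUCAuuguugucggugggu

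All 6 genes carried the same 5p seed, and no other gene of the RefSeq microRNA table carried it. Counting from 1 at the 5′ end, miR-181b-5p and miR-181d-5p differed by the single substitution C12U. From miR-181a-5p to miR-181b-5p the substitutions were A9U, C10U and A21G. The miR-181c-5p strand equals miR-181a-5p with base 11 deleted. By sequence, therefore, Mir181c groups with the a genes and Mir181d with the b genes.

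The 3p strands, in contrast, differ in every gene, and their seeds, again in capitals, split the family.
miR-181a-1-3p: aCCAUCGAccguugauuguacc
miR-181c-3p: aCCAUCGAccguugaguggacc
miR-181a-2-3p: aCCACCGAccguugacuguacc
miR-181b-1-3p: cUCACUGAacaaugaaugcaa
miR-181b-2-3p: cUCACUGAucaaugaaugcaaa
miR-181d-3p: cCCACCGGgggaugaauguca

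Mir181a-1 and Mir181c shared a 3p seed, as did Mir181b-1 and Mir181b-2, while those of Mir181a-2 and Mir181d each occurred in 1 gene of the table. The substitutions from miR-181a-1-3p to miR-181a-2-3p were U5C and U16C, the first of which lies in the seed. From miR-181b-1-3p to miR-181b-2-3p the substitution was A9U, outside the seed.

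The cluster on chromosome 8 supplied most of the family's counts, that is, of the reads assigned to one gene. Mir181c (ENSMUSG00000065483.1, GRCm38 chromosome 8, 84178873 to 84178961, minus strand) had 94036 counts in replicate 1 and 23667 in replicate 2, which are 6232 and 6063 CPM. Mir181d (ENSMUSG00000076338.1, chromosome 8, 84178716 to 84178787, minus strand) had 80693 and 20984 counts, or 5347 and 5376 CPM. Both hairpins lie in an intron of Nanos3, a gene known for its role in germ cells, on the strand of that gene and 85 bases apart. The annotation used for positions has a later version of the Mir181c identifier than the deposited tables, so the interval used for counting may differ from the one given.

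The chromosome 1 cluster held a well represented a gene and the least abundant b gene. Mir181a-1 (ENSMUSG00000065565.1, chromosome 1, 137966455 to 137966541, plus strand) had 16154 and 3779 counts in replicates 1 and 2, or 1071 and 968 CPM. Mir181b-1 (ENSMUSG00000065458.1, chromosome 1, 137966639 to 137966718, plus strand), 97 bases downstream, had 248 and 82 counts, or 16.4 and 21.01 CPM. In both libraries Mir181b-1 was the lowest member. Both genes lie in an intron of the noncoding gene Gm4258 on the same strand, and opposite an intron of the noncoding gene Gm26936. The exon of another noncoding gene, A430106G13Rik, contains the whole Mir181b-1 hairpin and the last 11 bases of the Mir181a-1 hairpin.

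On chromosome 2 the b gene was the abundant one. Mir181b-2 (ENSMUSG00000065578.1, chromosome 2, 38853830 to 38853918, plus strand) had 16448 and 4157 counts in replicates 1 and 2, or 1090 and 1065 CPM. Mir181a-2 (ENSMUSG00000065423.1, chromosome 2, 38852735 to 38852810, plus strand) had 1767 and 347 counts, or 117 and 88.9 CPM. These hairpins are 1019 bases apart and lie opposite an intron of Nr6a1, an orphan nuclear receptor gene of the minus strand. Mir181b-2 also lies opposite an exon of the unverified transcript Gm44144.

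**Figure D1:**
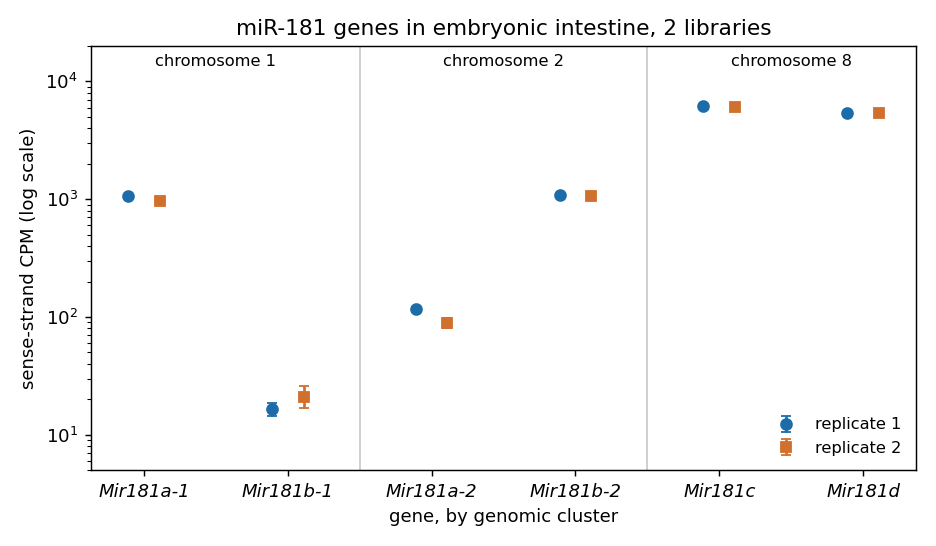
Sense-strand CPM on a log axis for each miR-181 gene, ordered by cluster, with circles for replicate 1 and squares for replicate 2; bars are Wilson 95% counting intervals and are mostly smaller than the symbols. Mir181c and Mir181d lie highest (means of 6147 and 5362 CPM), Mir181b-2 and Mir181a-1 next (1077 and 1019), then Mir181a-2 (103) and Mir181b-1 (18.7). Reads that match several places are not counted.

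The mean levels in CPM (± SD, n = 2) were 6147 ± 119 for Mir181c and 5362 ± 20.03 for Mir181d. They were 1077 ± 17.7 for Mir181b-2 and 1019 ± 72.4 for Mir181a-1. The lowest were 103 ± 19.9 for Mir181a-2 and 18.7 ± 3.23 for Mir181b-1. This order was the same in both libraries. Mir181b-2 and Mir181a-1, neighbours in it, did not differ beyond their spread: Mir181b-2 exceeded Mir181a-1 1.02-fold in replicate 1 (exact binomial 95% counting interval 0.996 to 1.04) and 1.10-fold in replicate 2 (1.05 to 1.15). Every other pair of neighbours kept its order with non-overlapping values in the 2 libraries. By mean level Mir181c ranked 35th and Mir181d 41st among the 1973 genes, Mir181b-2 and Mir181a-1 ranked 98th and 101st, and Mir181a-2 and Mir181b-1 ranked 194th and 263rd.

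All 6 members were detected, meaning at least 10 counts in both libraries, as were 363 of the 1973 genes. The family as a whole made up 1.39% of the counts in replicate 1 (Wilson 95% interval 1.381 to 1.393%) and 1.36% in replicate 2 (1.347 to 1.370%). None of the 6 genes had a count on its opposite strand, and 3 counts, the limit that a count of 0 allows, would be 0.00143% of the family's counts in replicate 1 and 0.00566% in replicate 2. Over all genes, the opposite strand held 2.89% and 3.10% of the counts. A count of 0 there was not particular to the family. Of the genes nearest in level to Mir181c and Mir181d, Mir652, Mir379 and Mir18 also had none, and Mir541 had 1, in replicate 1. Mir299b, named after its values were seen, had 31795 and 8189 opposite-strand counts. Intervals and limits cover counting error only, since PCR copies cannot be recognised in these tables.

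Among the 3 clusters, Mir181c with Mir181d outweighed each of the others about 10-fold in reads assigned to one gene. That pair held 83.5% of the family's counts in replicate 1 and 84.2% in replicate 2, with 44.9% and 44.6% from Mir181c and 38.5% and 39.6% from Mir181d. Mir181a-2 with Mir181b-2 held 8.70% and 8.50%, and Mir181a-1 with Mir181b-1 held 7.83% and 7.28%. In CPM (± SD, n = 2) the cluster sums were 11509 ± 99.2, 1180 ± 37.6 and 1038 ± 69.2. Exact reads of miR-181a-5p or miR-181b-5p match 2 genes each and would be missing from these sums, as set out below.

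**Figure D2:**
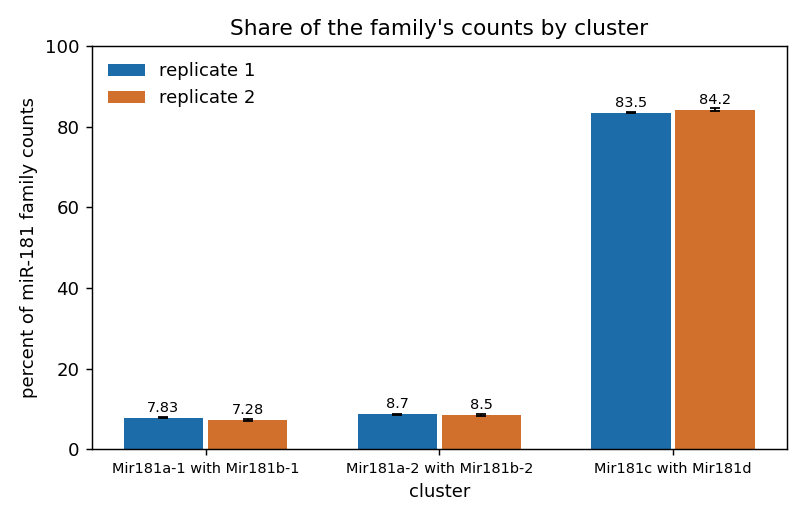
Percent of the miR-181 family's sense counts from each genomic cluster, in replicate 1 (blue) and replicate 2 (orange); bars start at 0 and error bars are Wilson 95% counting intervals. The chromosome 8 pair holds 83.5% and 84.2%, and each other cluster holds under 10% in both libraries. Only reads assigned to one gene are counted.

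A ratio of counts within a library needs no scaling. The chromosome 8 cluster exceeded the chromosome 1 cluster by a log2 ratio of 3.41 in replicate 1 (exact binomial 95% counting interval 3.39 to 3.44) and 3.53 in replicate 2 (3.48 to 3.58). It exceeded the chromosome 2 cluster by 3.26 (3.24 to 3.28) and 3.31 (3.27 to 3.35). Both ratios were many times larger than their gaps between the libraries, 0.12 and 0.047. The chromosome 2 cluster exceeded the chromosome 1 cluster by only 0.15 and 0.22, a 1.11-fold and 1.17-fold difference, against a gap of 0.071. Library preparation does not capture every small RNA equally well, so these are ratios of counts and not of molecules. Reads that match several places are also left out, as exact reads of miR-181a-5p and miR-181b-5p would be. No p-value over samples was computed, since the smallest p an exact permutation test can give over 2 libraries is 0.5.

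The balance of counts from a-like and b-like hairpins differed between the clusters. The a-like gene was ahead on chromosomes 1 and 8, and the b-like gene on chromosome 2. On chromosome 1 Mir181a-1 exceeded Mir181b-1 65.1-fold in replicate 1 (95% counting interval 57.5 to 74.1) and 46.1-fold in replicate 2 (37.0 to 58.1). On chromosome 2 the order was opposite, and Mir181b-2 exceeded Mir181a-2 9.31-fold (8.86 to 9.78) and 12.0-fold (10.7 to 13.4). On chromosome 8 the pair was nearly even, with Mir181c exceeding Mir181d 1.17-fold and 1.13-fold. Hairpins differ in length from 72 bases (Mir181d) to 89 (Mir181c and Mir181b-2). With each count divided by that length, the last ratio turned, to a mean log2 of -0.11 against 0.20 without the division. The other 5 ratios between or within clusters kept their sign. Inserts were under 30 bases, shorter than every hairpin, so counts need not scale with hairpin length. Exact 5p reads match more than one annotated hairpin for the genes of chromosomes 1 and 2, but not for those of chromosome 8. The balances may therefore rest on unlike sets of reads.

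**Figure D3:**
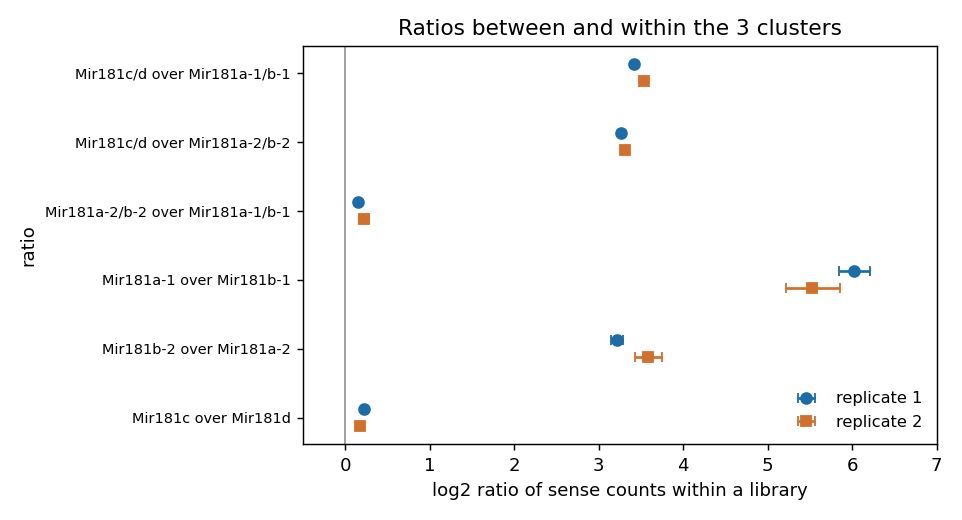
Log2 ratios of sense counts within each library, with 3 ratios between cluster sums above and 3 ratios between the genes of a cluster below; circles are replicate 1, squares replicate 2, and bars exact binomial 95% counting intervals. The ratio of Mir181a-1 to Mir181b-1 (6.03 and 5.53) is the largest, and those of Mir181c to Mir181d (0.22 and 0.17) lie close to 0. Counts leave out reads that match several places.

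The same counts can also be set side by side for genes with an identical 5p strand. Mir181a-1 exceeded Mir181a-2 9.14-fold in replicate 1 (95% counting interval 8.70 to 9.61) and 10.9-fold in replicate 2 (9.75 to 12.2). Mir181b-2 exceeded Mir181b-1 66.3-fold (58.5 to 75.5) and 50.7-fold (40.7 to 63.9). Thus, over the reads assigned to one gene, the copy with more counts was on chromosome 1 for miR-181a and on chromosome 2 for miR-181b. This held in both libraries.

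These 4 levels depend on which reads could be assigned to one place. The precursors are shown with the longest run shared by each pair in capitals.
Mir181a-1 hairpin: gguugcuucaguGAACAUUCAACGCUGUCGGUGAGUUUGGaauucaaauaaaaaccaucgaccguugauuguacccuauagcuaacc
Mir181a-2 hairpin: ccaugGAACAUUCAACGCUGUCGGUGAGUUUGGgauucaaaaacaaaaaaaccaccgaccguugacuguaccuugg
Mir181b-1 hairpin: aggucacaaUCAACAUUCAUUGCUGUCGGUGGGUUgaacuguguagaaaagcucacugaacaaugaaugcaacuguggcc
Mir181b-2 hairpin: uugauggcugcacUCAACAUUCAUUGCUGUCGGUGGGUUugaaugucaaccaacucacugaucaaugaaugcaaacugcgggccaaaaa

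The shared run was 28 bases in the miR-181a pair and 26 bases in the miR-181b pair, and it contained the whole 5p strand. A read starting at the annotated 5p end would have to reach 28 bases to tell Mir181a-1 from Mir181a-2, and 25 bases to tell Mir181b-1 from Mir181b-2, where the annotated strands are 23 and 24 bases long. From the 3p end, 16 bases, the shortest length tried, sufficed in every member to set it apart from other annotated hairpins. For Mir181c and Mir181d, 16 bases sufficed in this sense for either arm. The rest of the genome was not searched, so placing a read may take more bases. Outside the 5p run the hairpins were distinct: of all stretches of 22 bases, 59 of 66 in Mir181a-1, 48 of 55 in Mir181a-2, 54 of 59 in Mir181b-1 and 63 of 68 in Mir181b-2 occurred in no annotated hairpin elsewhere, and all 68 and 51 did so in Mir181c and Mir181d. Multiply aligned reads stand in a row of their own, outside every gene, and made up 26.5% of the reads in replicate 1 and 26.6% in replicate 2, which is 33.3 and 35.2 times the family's counts. How many of them came from miR-181a-5p or miR-181b-5p, and which arm gave the counted reads, was not tested, as read sequences were not used here. An exact read of an annotated 5p strand of the miR-181a or miR-181b genes matches both hairpins of its pair and would stand in that row. The levels of Mir181a-1, Mir181a-2, Mir181b-1 and Mir181b-2 are uncertain for this reason and may be too low. The ratios of the chromosome 8 cluster to the others may likewise be too high, by an amount that was not tested. The ratios within the chromosome 1 and chromosome 2 clusters are uncertain as well, in a direction that was not tested.

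Values of other genes of the table show how levels lay by sequence sharing. Mature arms were on record for 334 of the 363 detected genes. Of these, 284 had no arm with an exact copy in an annotated hairpin at another place, and their median level was 173 CPM. The 41 genes with some but not all arms copied had a median of 66.3 CPM. The 9 genes with all arms copied had a median of 38.2 CPM. These medians are over detected genes only, and the order is another one over all genes with recorded arms: 0.519 CPM for the 814 genes with no arm copied, of which 34.9% were detected, 18.02 CPM for the 56 with some (73.2%) and 0 for the 46 with all (19.6%). Mir181c and Mir181d ranked 34th and 40th in the first class. Mir181b-2, Mir181a-1, Mir181a-2 and Mir181b-1 belonged to the second class, where they ranked 5th, 6th, 17th and 28th. Mir181b-2 and Mir181a-1 were thus among the 6 genes of that class with at least 1000 CPM. The classes use only the arms on record for each gene, and these records may be incomplete. Of the let-7a genes, Mirlet7a-1 stood in the class with all arms copied and Mirlet7a-2 in that with none.

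**Figure D4:**
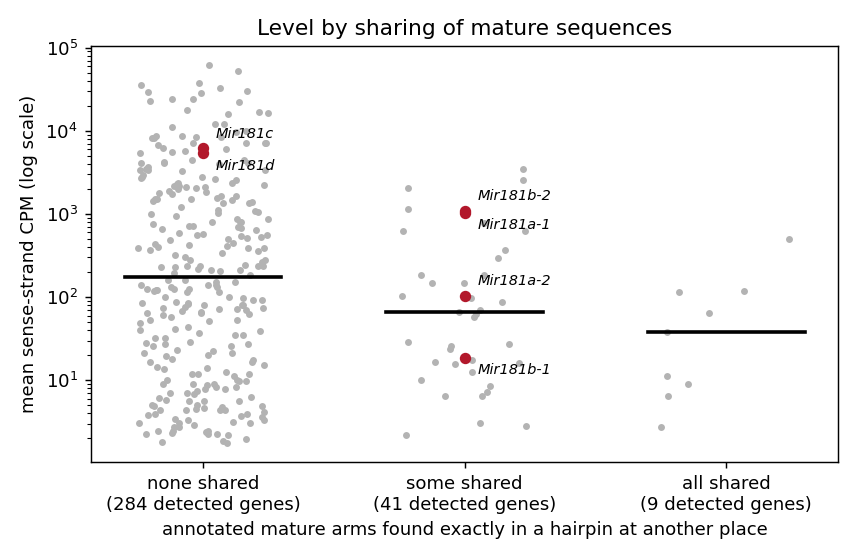
Mean sense-strand CPM, on a log axis, of the 334 detected genes with recorded mature arms, by whether none, some or all of their arms have an exact copy in a hairpin elsewhere; black lines are medians (173, 66.3 and 38.2 CPM), red points the miR-181 genes and grey points the other genes, spread sideways at random. Mir181c and Mir181d lie above the median of their class, and the other 4 members span theirs.

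The miR-30 and miR-15/16 families, chosen for comparison because their genes also lie in pairs, each contain a 5p strand encoded by 2 genes. The miR-30 genes, 6 in number, summed to 34282 ± 2569 CPM (SD, n = 2), led by Mir30e with 22223 ± 1663 CPM. Mir30c-1 and Mir30c-2, whose 5p strands become distinct at 29 bases, had 66.3 ± 2.96 and 27.6 ± 8.13 CPM. The 5 miR-15/16 genes measured summed to 7538 ± 372 CPM, led by Mir15a with 2610 ± 137 CPM. There Mir16-1 and Mir16-2, whose 5p strands become distinct at 24 bases, had 2025 ± 64.0 and 630 ± 28.7 CPM. The genes with a doubled 5p strand held 16.5% and 15.8% of the miR-181 counts in replicates 1 and 2. The corresponding shares were 35.6% and 34.9% for Mir16-1 with Mir16-2 in their family, and 0.265% and 0.282% for Mir30c-1 with Mir30c-2 in theirs. With 2 libraries these differences were not tested.

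Between the libraries the family's sum differed little, and the largest differences were those of its 2 least abundant genes, in opposite directions. The log2 difference, replicate 2 over replicate 1, was -0.031 for the summed family, -0.018 for the chromosome 8 cluster, -0.065 for the chromosome 2 cluster and -0.14 for the chromosome 1 cluster. Mir181a-2 was lower in replicate 2 by -0.40 (95% counting interval -0.57 to -0.23), and Mir181a-1 by -0.15 (-0.20 to -0.094). Mir181c differed by -0.040 (-0.060 to -0.019). These 3 passed an exact binomial test at 0.05, with p-values adjusted by Benjamini-Hochberg across all 363 genes detected (adjusted p = 6.17e-06, 8.43e-08 and 0.000516). The test sets these 2 libraries against counting error only and says nothing of a condition.

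The other 3 genes did not pass. Mir181b-1 had a log2 difference of 0.35, with a wide interval of -0.024 to 0.72 (exact test, adjusted p = 0.113). Mir181b-2 (-0.034, exact test, adjusted p = 0.289) and Mir181d (0.0076, exact test, adjusted p = 0.619) were close to 0. The ratio of Mir181a-2 to Mir181b-1 accordingly fell from 7.13 in replicate 1 to 4.23 in replicate 2, and the counting intervals (6.23 to 8.17 and 3.32 to 5.45) did not overlap.

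In all, 3 of 6 members were called, all lower in replicate 2. Of the 363 genes tested 43.8% were called, 29.8% higher and 14.0% lower in replicate 2. The median log2 difference was -0.037 over the members and 0.058 over all genes tested, and the median absolute difference over all genes was 0.15. With edgeR's TMM scaling the calls over all genes split into 58 higher and 84 lower, where the total counts gave 108 and 51, and 5 of the 6 members were called lower. DESeq2's size factors (54 higher and 90 lower) and totals without the most abundant gene, Mir143, likewise gave 5 members called lower. These 3 scalings shift the log2 difference of every gene alike, by -0.083, -0.093 and -0.038, so that Mir181d, at 0.0076 before, lay at -0.075, -0.085 and -0.030. Larger differences lay in other genes, of which some are named here after their values were seen. Mir802 had 24 counts in replicate 1 and 533 in replicate 2 (log2 difference 6.42). Mir7-2 differed by 1.84 and Mir375 by 1.20. Among genes with few counts, Mir216b (13 and 12 counts) differed by 1.84 and Mir5619 (19 and 14 counts) by 1.51. No member differed by as much.

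**Figure D5:**
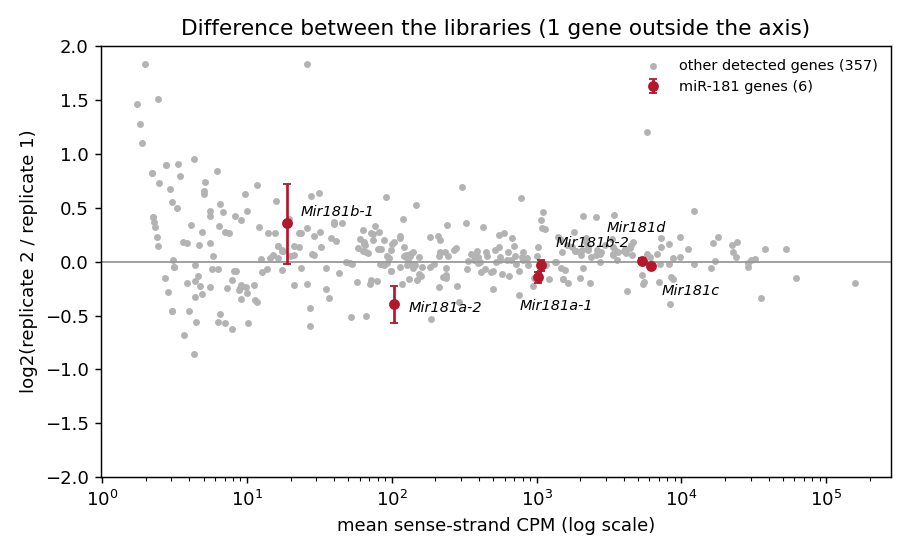
Log2 difference between the libraries (replicate 2 over replicate 1) against mean sense-strand CPM on a log axis for the detected genes; grey points are the 357 other genes, of which Mir802 lies outside the axis, and red points the miR-181 genes with exact binomial 95% counting intervals. Mir181a-2 lies at -0.40 and Mir181b-1 at 0.35, and the other 4 members lie between -0.15 and 0.0076.

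The genes nearest to each member in mean level over the 2 libraries were as follows. Mir181c lay between Mir652 (6173 ± 27.0 CPM) and Mir541 of the Dlk1-Dio3 region (6088 ± 133 CPM). Mir181d lay between Mir379 (5395 ± 555 CPM) and Mir18 of the miR-17-92 cluster (5313 ± 315 CPM). Mir181b-2 lay between the epithelial genes Mir200a (1090 ± 168 CPM) and Mir205 (1067 ± 203 CPM), which had log2 differences of 0.32 and 0.39 where Mir181b-2 had -0.034. Mir181a-1 lay between Mir532 (1021 ± 68.8 CPM) and Mir25 (1012 ± 25.4 CPM). Mir181a-2 lay between Mir138-2 and Mir302d (104 ± 9.34 and 101 ± 8.12 CPM), and Mir181b-1 between Mir1968 and Mir6944 (19.4 ± 3.72 and 17.8 ± 0.859 CPM). Likeness in level over 2 libraries is a description only.

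The tissue label was checked against marker microRNAs. All 4 intestinal epithelial genes measured were detected, with sums of 8980 and 11362 CPM in replicates 1 and 2, as were both smooth muscle genes, Mir143 and Mir145a, at 171529 and 149642 CPM. Of cell types known to express miR-181, the endothelial gene Mir126a had 23478 and 24174 CPM. The leukocyte list (4 of 5 genes detected, Mir142b at 0) summed to 4360 and 4803 CPM. Mir142, also planned for this list, was not among the genes measured. Of the sums, Mir342, which is not restricted to leukocytes, gave 3912 and 4246 CPM. Mir223 gave 379 and 472, Mir155 56.5 and 69.2, and the lymphocyte gene Mir150 12.6 and 15.1. The neuronal list (7 of 11 genes detected, Mir9-2, Mir124a-2 and Mir124a-3 at 0) summed to 2635 and 2993 CPM, led by Mir137, and several of its genes share sequence. The striated muscle list (1 of 5 genes detected) summed to 11.5 and 9.99 CPM. Sharing of sequence was not checked for its genes Mir133a-1 and Mir133a-2, which had no mature arms on record. Mir1a-2, also planned for this list, was not among the genes measured, and the records for Mir1a-1 may be incomplete. The lists did not move together between the libraries. The log2 difference of the sum, replicate 2 over replicate 1, was 0.34 for intestinal epithelium, 0.29 for the miR-200 genes, -0.20 for smooth muscle, 0.042 for endothelium, 0.14 for leukocytes, 0.18 for neurons, -0.21 for striated muscle, 0.66 for erythroid genes and 0.36 for the liver gene Mir122, and -0.031 for miR-181. Which cells gave the miR-181 counts was not tested.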

How the data were processed

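The deposited tables, one per library, hold whole-number read counts per gene as the authors made them, in 3 columns: both strands, sense and antisense. That reading of the columns comes from the values. Per the files that accompany the tables, reads were placed on mm10 and counted over GENCODE M4; aligner, trimming, counter and settings are not given in the sources used here. Rows for unaligned, multiply aligned and unassigned reads (12.4%, 26.5% and 3.90% of replicate 1, 13.8%, 26.6% and 3.88% of replicate 2) stayed out of totals and tests.

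Sense counts were divided by their sum over gene rows, 15090126 in replicate 1 and 3903472 in replicate 2, so a count of 0 allows up to 0.199 and 0.769 CPM (3 counts). Symbols and positions came from GENCODE M21 (1894 of 1973 identifiers matched), sequences from RefSeq. Copies of mature strands were searched in annotated hairpins of both sources, in either orientation. The libraries were compared by a two-sided exact binomial test per gene (scipy 1.17.1), with Benjamini-Hochberg adjustment over genes with at least 10 counts in both libraries. The single group allows no quasi-likelihood test. Alternatives were edgeR 4.0.16 TMM and DESeq2 1.42.0 size factors, other totals, both strands, other count minimums, each library alone and, chosen after seeing the data, counts per hairpin length.

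Named genes were the members, their nearest neighbours in mean level, genes sharing the 5p seed, and the sums and leading genes of 2 comparison families and 9 marker lists; other list genes, and the ratios between genes with the same 5p strand or adjacent in level, were named after their values were seen. Erythroid genes summed to 258 and 409 CPM and the liver gene Mir122 had 39.8 and 51.0 CPM in replicates 1 and 2; the 5 miR-200 genes summed to 35028 and 42892 CPM, led by Mir429. The members and lists were chosen with earlier results of these data known.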

Additional observations from a re-analysis of the deposited data

How the results depend on the processing

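Ratios between and within clusters could not change with the scaling, nor with both strands counted, since no member has opposite-strand counts. Divided by hairpin length, the log2 ratios of the chromosome 8 cluster to the chromosome 1 and chromosome 2 clusters were 3.59 and 3.41, and that of Mir181c to Mir181d turned to -0.11, because Mir181d has the shorter hairpin. Levels followed the total chosen. Without Mir143 in the total, the family held 1.63% and the chromosome 1, 2 and 8 clusters 1232, 1401 and 13656 CPM. Over all reads in the table these were 0.776%, 587, 667 and 6502 CPM. With both strands the family held 1.33% and the chromosome 8 cluster 11165 CPM. Mir181c and Mir181d alone, which have no exact 5p copy, held 1.15%. The library comparison leaned on scaling, because TMM, DESeq2's size factors and totals without Mir143 shift every gene's log2 difference by -0.083, -0.093 and -0.038. Under TMM, 58 genes were called higher and 84 lower, under DESeq2's size factors 54 and 90, and 5 members were called lower under TMM, under DESeq2's factors and without Mir143, where the total counts gave 3. Mir181d then lay at -0.075, -0.085 and -0.030, and Mir181b-2 passed at -0.12, -0.13 and -0.071. Taken singly, the 2 libraries kept the sign of all 6 cluster ratios, while the summed ratio of miR-181a to miR-181b genes ran from -0.039 to 0.10. No paired analysis was possible because the series has 1 group. The planned search of the genome with 1 mismatch was not run, as no genome sequence was used here; in annotated hairpins, 1 mismatch also placed the 5p strands of Mir181b-1 and Mir181b-2 at Mir181d, and that of Mir181d at both. Replicate 1 was 3.87 times deeper, and the 82 counts of Mir181b-1 in replicate 2 set the limit on its ratios.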

Other observations

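The summed counts of the 2 miR-181a genes and of the 2 miR-181b genes were nearly equal, although each sum rested on a different chromosome. Mir181a-1 and Mir181a-2 together had 17921 and 4126 counts in replicates 1 and 2, and Mir181b-1 and Mir181b-2 had 16696 and 4239. The ratio of a to b was 1.07 in replicate 1 (exact binomial 95% counting interval 1.05 to 1.10) and 0.973 in replicate 2 (0.932 to 1.02), so its log2 value ran from -0.039 to 0.10 over the single libraries. This sum was formed after the values were seen, and it holds only the reads that could be assigned to one place.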
